A study of Mus musculus with 4 samples.

Results

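The genes examined encode the peptide adrenomedullin (Adm), its receptor complex (Calcrl, Ramp1, Ramp2 and Ramp3), its scavenger receptor (Ackr3), endothelin 1 and its receptors (Edn1, Ednra and Ednrb) and endothelial nitric oxide synthase (Nos3). They were 10 in number, chosen by name as regulators of vessel tone, out of 18193 genes with a probe set of their own on the arrays. A gene was taken from every probe set that the platform annotation pairs with its symbol alone, and the probe set with the highest mean signal over the 4 arrays stood for it. In this way 9 of the 10 genes were measured, by 16 probe sets, and Ednra was unnamed here. Another 2 probe sets are annotated to both Ramp2 and Vps25 and named neither gene.

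RNA came from mouse cells labelled as collecting lymphatic endothelium. The mice carried a flank tumour of 293EBNA cells, an established line derived from human embryonic kidney, grown to 2000 mm3. In the VEGFD group (2 arrays) the tumour cells had been transfected with the Apex vector holding VEGFD, the gene of the lymphangiogenic growth factor VEGF-D, and in the Apex group (2 arrays) with the empty vector. The draining vessels were stained through the tumour with Patent Blue V, dissected and dissociated, and endothelial cells were taken by magnetic sorting. The study asked how the endothelium of collecting lymphatics that drain a VEGF-D producing tumour differs from that draining a control tumour. The extraction label names lymph node endothelial cells instead, and the labels do not give the strain, age or sex of the mice or whether mice were pooled. Each group rests on 1 transfected tumour line, so VEGF-D and other differences between the lines cannot be told apart. The titles call the arrays biological replicates. Nothing further says that they came from separate mice, so the p-values measure the spread between these arrays, which may in part be technical.

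Adrenomedullin is a vasodilator peptide whose receptor is the G protein-coupled protein made by Calcrl, joined to a small partner protein of the RAMP family. With the Ramp2 or Ramp3 product the pair binds adrenomedullin, and with the Ramp1 product it binds the sensory nerve peptide CGRP. In mouse embryos, loss of Adm, Calcrl or Ramp2 gives oedema and poorly formed lymphatics. Endothelin 1 is a vasoconstrictor that acts on smooth muscle through the product of Ednra, while the product of Ednrb on endothelium clears it and triggers nitric oxide release. Nitric oxide from the Nos3 enzyme relaxes smooth muscle, and in collecting lymphatics it tempers the rhythmic contractions that pump lymph.

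Values are the deposited probe set signals, a linear brightness in intensity units, given throughout with VEGFD replicates 1 and 2 before Apex replicates 1 and 2. Signals were put on a log2(signal + 16) scale, and each change is the VEGFD mean less the Apex mean there. Its standard error (SE) comes from a limma fit over 11677 genes with n = 2 and 2, and adjusted p values are Benjamini-Hochberg values over all of them. Adding 16 damps noise in dim signals and understates their folds. Genes entered the fit where their mean lay at or above 5.37 on that scale, a signal of 25.3, which is the median of all probe sets other than controls. The filter kept 8 of the 9 measured genes and left out Ramp1. It averages over both groups, so a gene that is bright in 1 group can pass on that group alone.

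Marker signals bore out the endothelial label unevenly. Pecam1, which encodes the junction protein CD31, had signals of 3.25 and 2.22 in VEGFD arrays, against 2.92 and 141 in Apex arrays. Cdh5, which encodes VE-cadherin, had 4.23 and 3.11 in VEGFD arrays, against 13.0 and 146 in Apex arrays. Apex replicate 2 was thus the single array on which both were above the filter signal. Over 13 pan-endothelial markers, 8 of them tested, the summed signal was 1212 and 522 in VEGFD arrays, against 791 and 4526 in Apex arrays. Emcn, an endothelial surface protein gene, made up 2670 of the sum on Apex replicate 2. Further markers are named here after their values were seen. Tie1 had 0.755 and 1.81 in VEGFD arrays, against 0.626 and 33.4 in Apex arrays. Erg had 1.23 and 1.48 in VEGFD arrays, against 1.07 and 68.3 in Apex arrays. Some others were above the filter signal on all 4 arrays. Eng had 829 and 271 in VEGFD arrays, against 417 and 765 in Apex arrays, and Kdr ran from 55.4 to 90.8. The lymphatic gene Prox1 lay between 3.19 and 11.6 on the 4 arrays, and Lyve1 had 22.0 and 14.5 in VEGFD arrays, against 16.5 and 151 in Apex arrays. Over 7 lymphatic markers, 4 of them tested, the sum was 1501 and 2060 in VEGFD arrays, against 1204 and 2336 in Apex arrays. Most of it was Pdpn, with 1237 and 1715 in VEGFD arrays, against 963 and 1622 in Apex arrays. Flt4 had 161 and 145 in VEGFD arrays, against 42.6 and 247 in Apex arrays. Nrp2 was the 1 tested marker of this list without overlap, with 34.2 and 122 in VEGFD arrays, against 148 and 246 in Apex arrays. The fibroblast gene Col1a2 ran from 5555 to 6846 on the 4 arrays, and Col1a1 had 2034 and 3342 in VEGFD arrays, against 2491 and 862 in Apex arrays. The sum over 8 fibroblast markers was 17284 and 17954 in VEGFD arrays, against 19407 and 17571 in Apex arrays. Of the 7 tested, 4 were higher and 3 lower in VEGFD arrays. Dpt had the largest change, with 204 and 168 in VEGFD arrays, against 2725 and 2407 in Apex arrays. The sum over 10 smooth muscle and pericyte markers was 9483 and 18632 in VEGFD arrays, against 7666 and 8993 in Apex arrays. In that list Acta2 ran from 3525 to 8802, while Myh11, the marker of mature smooth muscle, was at most 19.2 on any array. Without overlap, Tagln (log2 change 2.34), Myl9 (1.97) and Acta2 (0.78) were higher in VEGFD arrays, and Des (-1.33) and Pdgfrb (-0.97) were lower. The 5 measured fat cell markers summed to 1164 and 1227 in VEGFD arrays, against 2001 and 4517 in Apex arrays, with Adipoq at 12.7 and 12.5 in VEGFD arrays and 38.3 and 145 in Apex arrays. Sums were at most 632 for leukocyte markers, 318 for Schwann cell and melanocyte markers and 287 for epithelial markers. Most of the leukocyte sum was Csf1r, a macrophage receptor gene, with 335 and 558 in VEGFD arrays, against 503 and 472 in Apex arrays. On VEGFD replicate 2 that sum (632) was above the pan-endothelial one (522). Sums over lists of different genes do not rank the amounts of cell types. Of the genes defining the leukocyte, Schwann cell and epithelial lists, Ptprc was at most 13.0 and Cd68 ran from 30.6 to 58.0. Sox10 ran from 43.5 to 80.3 and Cdh1 was at most 13.5, while Epcam had 35.7 and 36.0 in VEGFD arrays, against 91.7 and 74.8 in Apex arrays. No marker was listed at 0. The arrays are called by their labels below.

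None of the 8 tested genes passed the limma test at an adjusted p of 0.05, and the share passing over all 11677 genes was 0%. At an unadjusted p under 0.05 there was 1 of the 8 (Ramp2), where the share over all genes was 5.70%, or 666 genes. The 2 VEGFD values lay on 1 side of the 2 Apex values for 2 of the 8 genes, Ramp2 and Edn1, where the share over all tested genes was 38.5%, or 21.8% for those lower in VEGFD arrays. Both were lower in VEGFD arrays and at least 2-fold apart, as were 2.79% of all tested genes (326 genes). Counted in either direction that share was 3.88% (453 genes). By direction alone 7 of the 8 genes were lower in VEGFD arrays, with a median log2 change of -0.53, against 53.6% of all tested genes and a median of -0.035 over them. With 1 array left out in turn, 5 to 8 of the 8 were lower, and the median was -0.87 without VEGFD replicate 1, -0.36 without VEGFD replicate 2, -0.28 without Apex replicate 2 and -0.83 when Apex replicate 1 was left out. With 2 arrays a group there are 3 ways to split the arrays, and the smallest p an exact permutation test allows is 0.333. In sorted or dissected tissue, fewer cells of a type and less RNA per cell cannot be told apart.

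**Figure D1:**
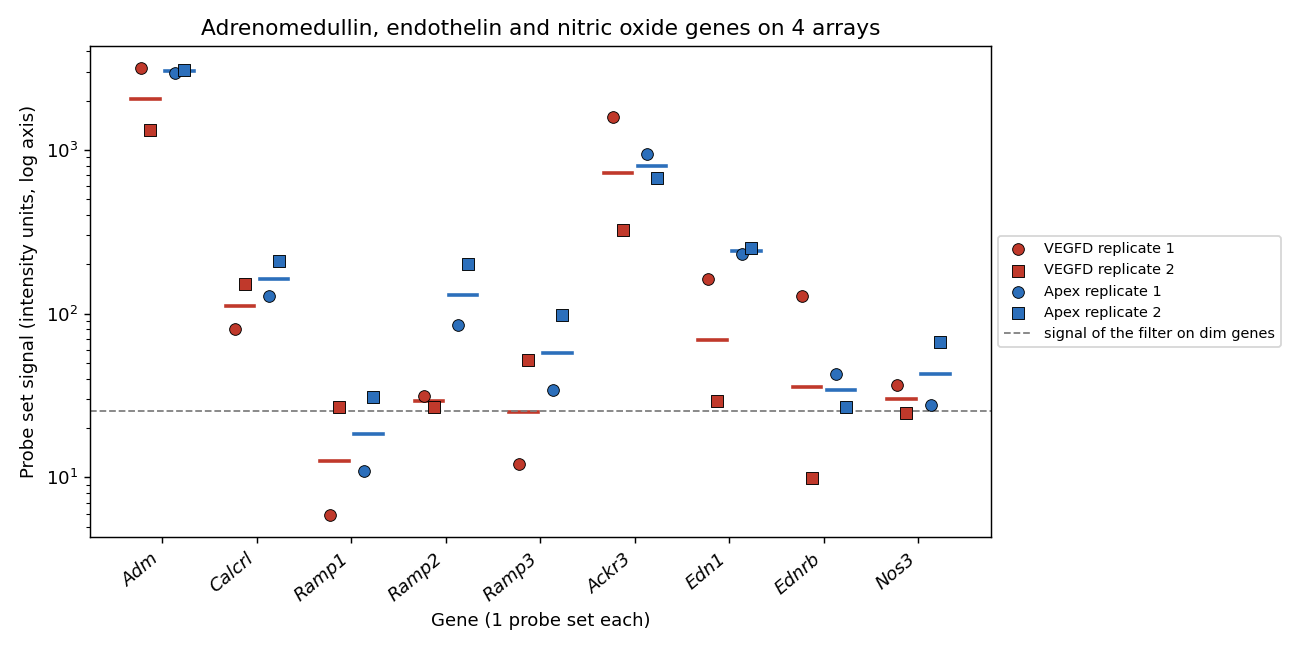
Probe set signal (intensity units, log axis) of the 9 measured genes, with red points for VEGFD arrays and blue points for Apex arrays, circles for replicate 1 and squares for replicate 2, and a bar at each group's geometric mean. Ramp2 and Edn1 are the genes whose red points both lie below both blue points, and the dashed line marks the filter signal of 25.3.

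The ligand gene was low on 1 of the VEGFD arrays. Adm had signals of 3148 and 1321 in VEGFD arrays, against 2966 and 3093 in Apex arrays. VEGFD replicate 2 was low and the other 3 arrays lay close together, so the groups overlapped. The log2 change was -0.57 ± 0.43 (SE, adjusted p = 0.829 by limma), with a 95% interval from -1.64 to 0.51. The change was 0.056 when VEGFD replicate 2 was left out and -1.19 when VEGFD replicate 1 was. A second Adm probe set showed the same order of high and low VEGFD arrays, with 2235 and 897 in VEGFD arrays, against 1891 and 2294 in Apex arrays, a log2 change of -0.55.

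Of the receptor genes, Ramp2 showed the clearest separation. It had signals of 31.5 and 27.0 in VEGFD arrays, against 84.7 and 202 in Apex arrays. Both VEGFD values lay just above the filter signal and close to each other, while the Apex values differed from each other by 1.11 on the log2 scale. The log2 change was -1.71 ± 0.42 (SE), or 3.27-fold lower in VEGFD arrays on the log2(signal + 16) scale, with an unadjusted p of 0.00865 and an adjusted p of 0.823 by limma. Its 95% interval, from -2.78 to -0.64, held no multiplicity correction. With each array left out in turn the change ran from -2.27 to -1.16, the smallest without Apex replicate 2. With a pseudocount of 64 it was -1.09 and with a pseudocount of 1 it was -2.13. No second probe set named Ramp2 alone. The 2 annotated to both Ramp2 and Vps25 had log2 changes of -0.34 and 0.20, and the part of either gene in them cannot be told apart.

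Calcrl, the receptor that the RAMP proteins join, had signals of 81.0 and 151 in VEGFD arrays, against 128 and 209 in Apex arrays. The ranges of the 2 groups overlapped, and the array order was Apex replicate 2, VEGFD replicate 2, Apex replicate 1 and VEGFD replicate 1 from high to low. Its log2 change was -0.50 ± 0.39 (SE, adjusted p = 0.832 by limma), with a 95% interval from -1.48 to 0.48. Leaving out VEGFD replicate 1 gave -0.11, and leaving out Apex replicate 2 gave -0.17. The other 2 Calcrl probe sets were dim on every array, at most 24.8, with log2 changes of 0.047 and 0.0094, and with the 3 averaged the change was -0.15.

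Ramp3, the partner that also makes an adrenomedullin receptor, had signals of 12.0 and 52.0 in VEGFD arrays, against 34.1 and 97.8 in Apex arrays. In each group replicate 2 was higher, and the gaps within groups (1.28 and 1.18 on the log2 scale) exceeded the change of -0.79 ± 0.59 (SE, adjusted p = 0.829 by limma). The change was -0.20 when Apex replicate 2 was left out and -0.15 when VEGFD replicate 1 was. Ramp1, the partner for the CGRP receptor, had signals of 5.90 and 27.1 in VEGFD arrays, against 10.9 and 31.0 in Apex arrays. It lay under the filter and its log2 change of -0.21 is a description. Its second probe set gave -0.014 and the remaining one 0.34, and with the 3 averaged the change was 0.037.

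Apex replicate 2, where the endothelial and fat cell sums were highest, also held the highest signal of Calcrl, Ramp1, Ramp2, Ramp3, Edn1 and Nos3. It was the highest array for 5 of the 8 tested genes, and for 29.7% of all tested genes. The part of cell composition in these values was not tested. For Ramp2 the measurement without that array was a log2 change of -1.16, with 31.5 and 27.0 in VEGFD arrays against 84.7 in Apex replicate 1.

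Ackr3 encodes an atypical chemokine receptor that takes up the chemokine CXCL12 and adrenomedullin without signalling through G proteins. It had signals of 1589 and 325 in VEGFD arrays, against 939 and 670 in Apex arrays. The highest and the lowest value both belonged to the VEGFD group, and the Apex values lay between them. The log2 change was -0.13 ± 0.73 (SE, adjusted p = 0.974 by limma), with an interval as wide as -1.96 to 1.71. Leaving out VEGFD replicate 2 gave 0.99, leaving out VEGFD replicate 1 gave -1.25, and leaving out Apex replicate 1 gave 0.11.

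**Figure D2:**
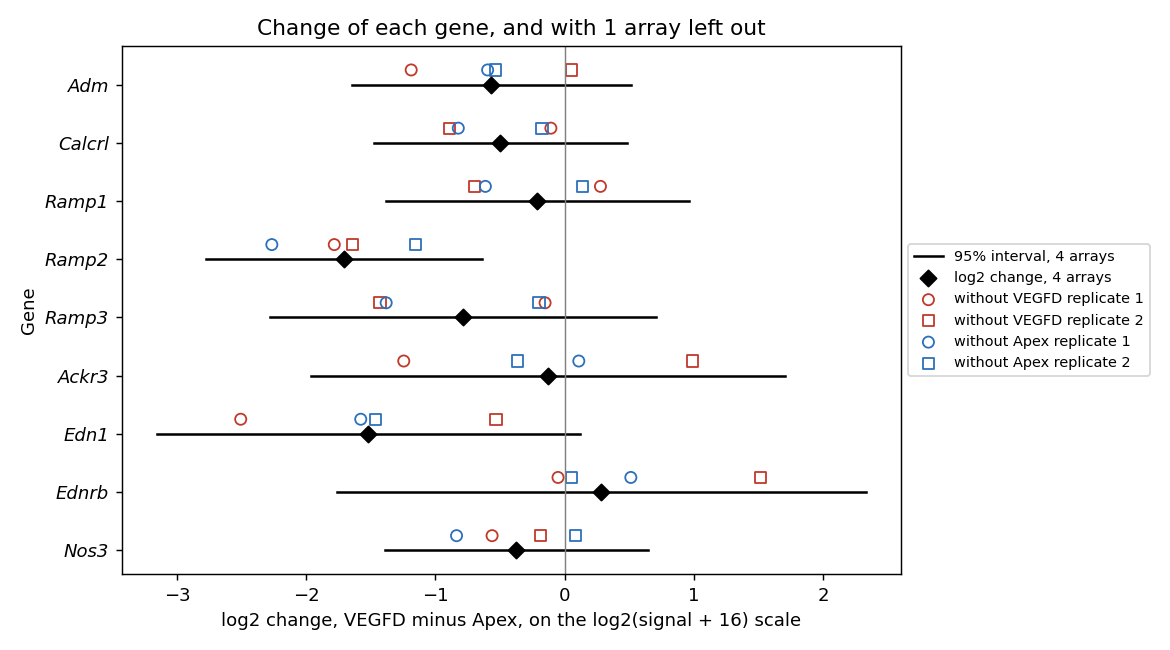
log2 change of each measured gene, VEGFD minus Apex, with diamonds for the fit on 4 arrays, lines for its 95% interval and open symbols for fits with 1 array left out (red for a VEGFD array, blue for an Apex array). The Ramp2, Edn1, Calcrl and Ramp3 values stay below 0 in each fit, while leaving out 1 VEGFD array moves Ackr3 between -1.25 and 0.99.

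Edn1, the endothelin 1 gene, had signals of 162 and 29.2 in VEGFD arrays, against 231 and 252 in Apex arrays. Both VEGFD values lay below the Apex values, VEGFD replicate 1 by a small margin and VEGFD replicate 2 by a large one. The log2 change was -1.52 ± 0.65 (SE), or 2.87-fold lower in VEGFD arrays on the log2(signal + 16) scale, with an unadjusted p of 0.0628 and an adjusted p of 0.823 by limma. The 95% interval ran from -3.15 to 0.12. The 2 VEGFD arrays differed from each other by 1.98 on the log2 scale and the 2 Apex arrays by 0.12. The change was -0.53 when VEGFD replicate 2 was left out. Leaving out VEGFD replicate 1 gave -2.51, in a fit where the lone VEGFD array is assumed to vary like the Apex arrays. Edn1 had 1 probe set.

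Ednrb, the endothelin receptor that endothelium carries, had signals of 128 and 9.97 in VEGFD arrays, against 43.0 and 26.9 in Apex arrays. As for Ackr3, the VEGFD arrays held both extremes. The log2 change was 0.28 ± 0.81 (SE, adjusted p = 0.946 by limma), with a 95% interval from -1.77 to 2.33, and leaving out VEGFD replicate 2 gave 1.52, against -0.051 on leaving out VEGFD replicate 1. The second probe set, with 56.3 and 22.5 in VEGFD arrays and 16.3 and 31.4 in Apex arrays, again had its highest signal in VEGFD replicate 1. The last varied little, from 25.5 to 35.1.

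Nos3 was dim, with signals of 36.8 and 24.7 in VEGFD arrays, against 27.6 and 66.8 in Apex arrays. Apex replicate 2 stood apart and the other 3 arrays lay near the filter signal. The log2 change was -0.37 ± 0.40 (SE, adjusted p = 0.861 by limma), with a 95% interval from -1.39 to 0.64, and it was 0.087 without Apex replicate 2. Nos3 had 1 probe set.

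In 4 genes the VEGFD arrays were uneven with the same array low. In Adm, Ackr3, Edn1 and Ednrb the signal of VEGFD replicate 2 was below that of VEGFD replicate 1, by 1.24, 2.23, 1.98 and 2.47 on the log2 scale in that order, while the Apex arrays differed by 0.060, 0.48, 0.12 and 0.46. Ramp3, with a VEGFD gap of 1.28, was instead lowest on VEGFD replicate 1. VEGFD replicate 2 was the lowest array for 6 of the 8 tested genes and for 35.5% of all tested genes. The gap between the VEGFD arrays exceeded that between the Apex arrays in 6 of the 8 genes and in 60.0% of all tested genes, with median gaps of 0.35 and 0.25 on the log2 scale. On the same array the smooth muscle (18632) and leukocyte (632) sums were highest. The pan-endothelial (522), Schwann cell and melanocyte (121) and epithelial (140) sums were lowest there. The part of cell composition in the values of this array was not tested.

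**Figure D3:**
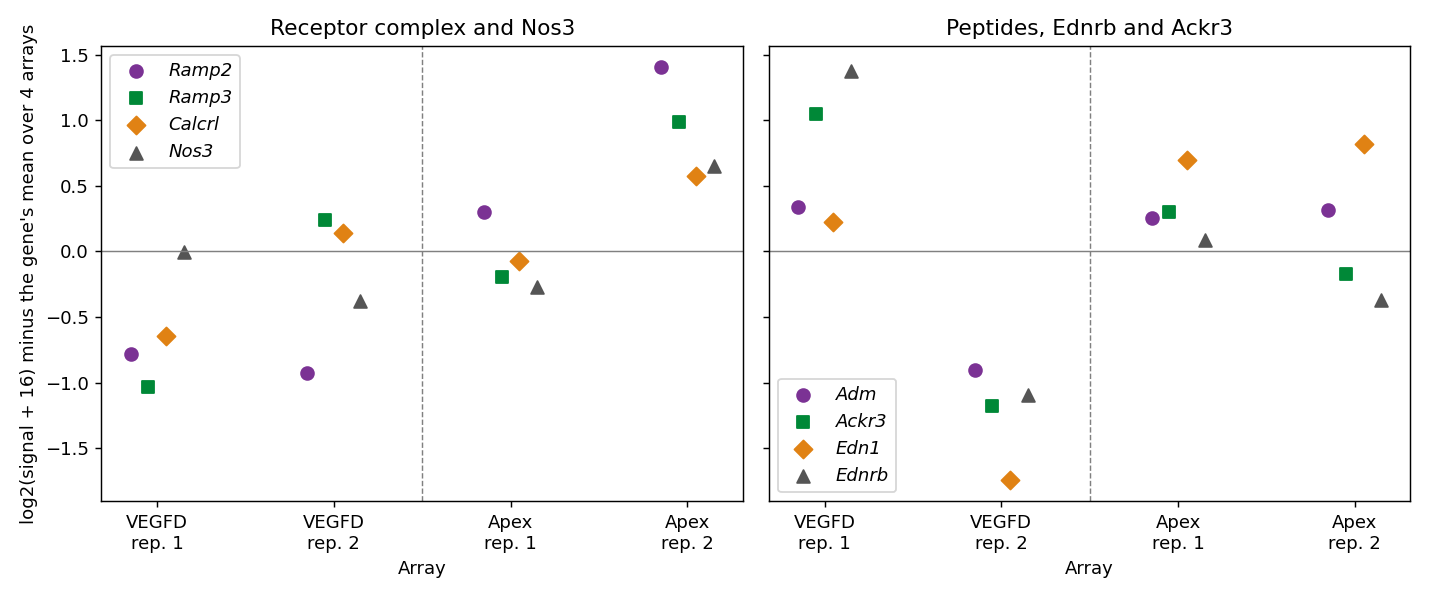
log2(signal + 16) of 8 genes minus each gene's mean over the 4 arrays, with VEGFD arrays left and Apex arrays right of the dashed line and 1 symbol for each gene. Adm, Ackr3, Edn1 and Ednrb are all lowest on VEGFD replicate 2, and Ramp2, Ramp3, Calcrl and Nos3 are all highest on Apex replicate 2. The patterns overlap, as Ramp2 and Nos3 are also lowest on VEGFD replicate 2 and Edn1 is also highest on Apex replicate 2.

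The promoters of these 4 genes are shown because their signals were low on the same array. Each is the RefSeq sequence of GRCm38.p6 from 250 bases before to 50 bases after the annotated start, read 5′ to 3′ along the gene. Capitals mark, on either strand, ACGTG and GCGTG (core of the element bound by hypoxia-inducible factors, which are known to induce Adm and Edn1), TGANTCA (bound by AP-1), GATAA (bound by GATA factors) and TATAA (the TATA box). Matches of 1 motif on opposite strands can overlap each other, as they do at TTATAA in Adm.
Adm (GRCm38.p6, chr7:110627407-110627706, plus strand): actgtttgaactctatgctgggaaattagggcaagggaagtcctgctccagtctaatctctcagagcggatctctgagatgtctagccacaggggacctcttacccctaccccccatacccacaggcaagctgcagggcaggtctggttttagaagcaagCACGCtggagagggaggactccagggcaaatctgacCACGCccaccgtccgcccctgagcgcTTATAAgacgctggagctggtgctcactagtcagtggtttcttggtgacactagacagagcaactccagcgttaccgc
Ackr3 (GRCm38.p6, chr1:90203730-90204029, plus strand): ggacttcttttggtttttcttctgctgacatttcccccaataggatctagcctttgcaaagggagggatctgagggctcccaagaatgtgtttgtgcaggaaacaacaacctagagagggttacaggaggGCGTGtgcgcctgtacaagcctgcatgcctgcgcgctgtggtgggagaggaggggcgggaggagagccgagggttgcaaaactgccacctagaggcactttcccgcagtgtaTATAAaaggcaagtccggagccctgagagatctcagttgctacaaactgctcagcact
Edn1 (GRCm38.p6, chr13:42301226-42301525, plus strand): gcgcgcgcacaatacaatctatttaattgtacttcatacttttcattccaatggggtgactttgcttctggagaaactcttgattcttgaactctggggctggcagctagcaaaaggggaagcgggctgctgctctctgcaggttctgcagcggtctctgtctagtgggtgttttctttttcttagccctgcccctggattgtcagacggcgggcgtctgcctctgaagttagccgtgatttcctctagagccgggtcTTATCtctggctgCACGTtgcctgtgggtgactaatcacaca
Ednrb (GRCm38.p6, chr14:103843652-103843951, minus strand): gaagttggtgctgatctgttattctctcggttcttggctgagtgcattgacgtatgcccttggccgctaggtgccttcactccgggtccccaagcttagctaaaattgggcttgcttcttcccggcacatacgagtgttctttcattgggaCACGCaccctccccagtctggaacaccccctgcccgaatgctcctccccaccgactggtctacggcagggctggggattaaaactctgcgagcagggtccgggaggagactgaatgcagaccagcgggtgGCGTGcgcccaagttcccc

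In these windows GCGTG was found in Adm, Ackr3 and Ednrb, and ACGTG in Edn1. GCGTG was also found in Calcrl and Ramp3, which were lowest on VEGFD replicate 1. In all, 5 of the 8 examined genes with a promoter sequence held it. Ramp2 and Nos3, which were also lowest on VEGFD replicate 2, had no promoter sequence here. Over all 32851 promoters of this length, 32.4% held GCGTG and 19.6% held ACGTG. The TATA box letters TATAA were found in Adm, where the forward match began at base -27 from the start, and in Ackr3 at base -8, against 24.9% of all promoters. GATAA was found in Edn1 alone of the 4, at base 9, against 25.4% of all promoters. TGANTCA was in none of the 4 windows, and in 7.81% of all promoters. A match describes letters and shows no binding.

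The wider pathways were described from lists of 35 genes, of which 22 were tested, and 0 passed the limma test at an adjusted p of 0.05. Of these 22, 11 were higher and 11 lower in VEGFD arrays, with a median log2 change of 0.053. In 7 of them the groups did not overlap, against 38.5% of all tested genes, and in 3 they were also at least 2-fold apart, against 3.88%. Those 3 were Cxcl12, Mme and Gch1.

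Among the partners of adrenomedullin and CGRP, 3 of 5 tested genes were higher and 2 lower, with a median of 0.12. Cxcl12, the chemokine that the Ackr3 product scavenges, had signals of 378 and 586 in VEGFD arrays, against 1055 and 904 in Apex arrays. Both VEGFD values were below both Apex values, and the log2 change was -1.03 ± 0.29 (SE, adjusted p = 0.823 by limma, unadjusted p = 0.0144). With each array left out in turn it ran from -1.33 to -0.72, and with averaged probe sets it was -0.55. Mme encodes neprilysin, a membrane peptidase that degrades vasoactive peptides including adrenomedullin and endothelin. It had 53.0 and 7.75 in VEGFD arrays, against 73.2 and 105 in Apex arrays, a log2 change of -1.36 ± 0.55 (SE, adjusted p = 0.823 by limma). Like Edn1 it was lowest on VEGFD replicate 2, and leaving that array out gave -0.59, while leaving out VEGFD replicate 1 gave -2.13. With a pseudocount of 64 it was -0.73. Pam, Calcr and Iapp are named for their roles, after their values were seen. Pam, which encodes the enzyme that amidates peptide hormones such as adrenomedullin, overlapped between groups at 0.28 ± 0.73 (SE). Calcr and Iapp, the genes of the calcitonin receptor and of amylin, were under the filter.

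Of 5 tested endothelin processing genes, 2 were higher and 3 lower, with a median of -0.016 that took in Mme as well. Ece1 and Edn3 are named for their roles, after their values were seen. Ece1, which encodes the main endothelin converting enzyme, had signals of 1197 and 770 in VEGFD arrays, against 1102 and 857 in Apex arrays. In both groups replicate 1 was the higher, and the log2 change was -0.016 ± 0.30 (SE), with a 95% interval from -0.77 to 0.74. Edn3, the gene of another endothelin, had 54.8 and 53.0 in VEGFD arrays, against 64.2 and 103 in Apex arrays, without overlap, and a log2 change of -0.48 ± 0.30 (SE).

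For nitric oxide synthesis and signalling, 6 of 13 tested genes were higher and 7 lower, with a median of -0.064. Gch1 encodes the rate-limiting enzyme for tetrahydrobiopterin, a cofactor that nitric oxide synthases need. It had signals of 465 and 382 in VEGFD arrays, against 249 and 140 in Apex arrays. Both VEGFD values lay above both Apex values, with a log2 change of 1.11 ± 0.33 (SE, adjusted p = 0.823 by limma, unadjusted p = 0.0190). Leaving out Apex replicate 2 gave 0.72, and leaving out Apex replicate 1 gave 1.49. With averaged probe sets the Gch1 change was 0.77, less than 2-fold. The other tested genes of the list without overlap, chosen for naming after their values were seen, were Ddah1, Slc7a1 and Cav1. Ddah1, whose product breaks down a natural inhibitor of nitric oxide synthases, had 1852 and 2557 in VEGFD arrays, against 1714 and 1288 in Apex arrays, and a log2 change of 0.55 ± 0.27 (SE). Slc7a1, which encodes a transporter of arginine, the substrate of the synthases, had 1061 and 1011 in VEGFD arrays, against 807 and 763 in Apex arrays, and 0.39 ± 0.21 (SE). Cav1, whose product caveolin binds and restrains the Nos3 enzyme, had 4427 and 4674 in VEGFD arrays, against 5352 and 6062 in Apex arrays, and -0.32 ± 0.20 (SE). In these 3 the groups lay less than 2-fold apart, and none passed.

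**Figure D4:**
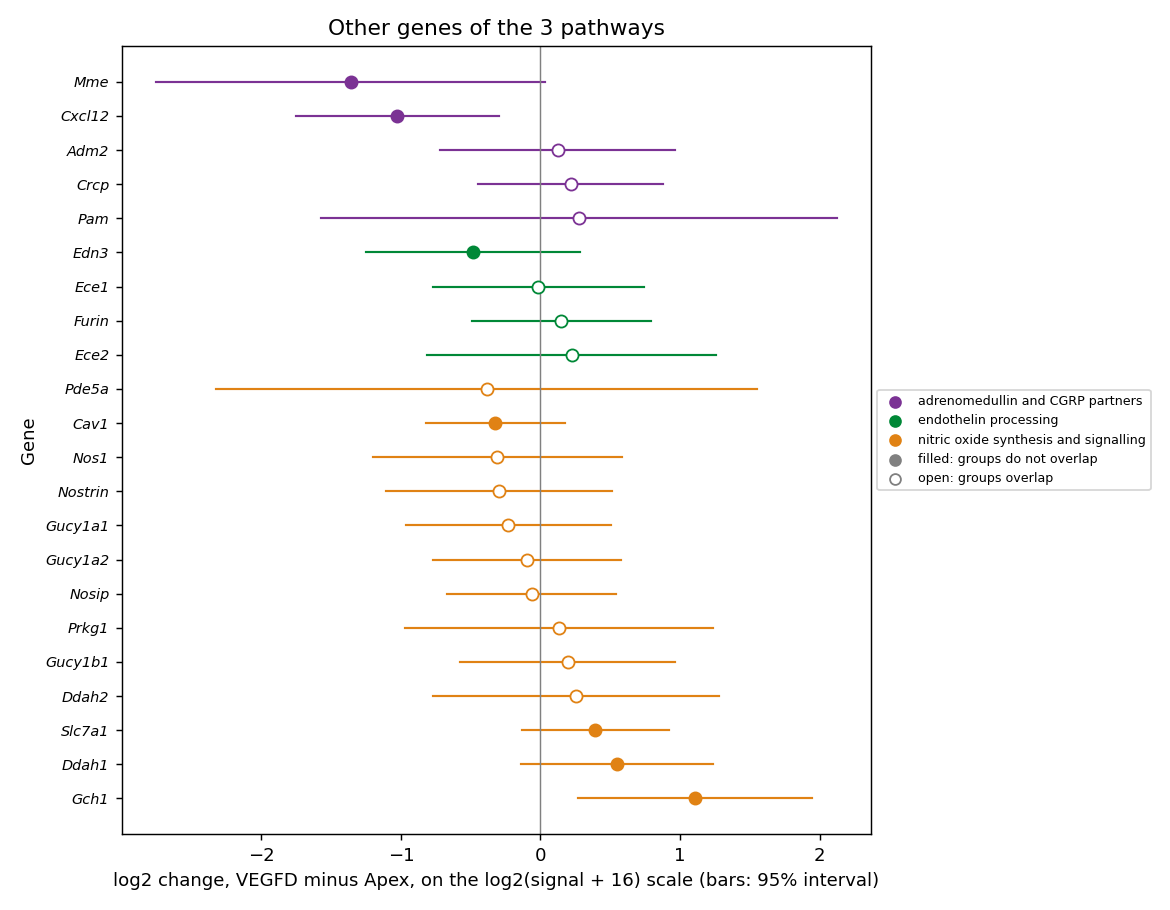
log2 change, VEGFD minus Apex, of the 22 tested genes of the wider pathways, with lines for the 95% interval, colours for the list (Mme, in both of the first lists, is drawn in the first) and filled points where the groups do not overlap. Filled points below 0 are Mme, Cxcl12, Edn3 and Cav1, and filled points above 0 are Gch1, Ddah1 and Slc7a1.

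Genes with the most similar array pattern were looked up for the 5 tested members whose values spanned at least 2 on the log2 scale. Likeness was the Euclidean distance between log2(signal + 16) values centred on each gene's mean, over 4 arrays and all 11677 tested genes. Nearest to Ramp2 was Itih2, at a distance of 0.11, with signals of 59.9 and 47.1 in VEGFD arrays, against 130 and 309 in Apex arrays, followed by Omd at 0.20. Nearest to Ramp3 were Sfrp2 at 0.19 and Chst1 at 0.20. Nearest to Ackr3 were Socs3, a feedback inhibitor gene of cytokine signalling, at 0.14, with 865 and 158 in VEGFD arrays, against 491 and 383 in Apex arrays, and Kcnt2 at 0.17. Edn1 was closest to A530047J11Rik at 0.092 and to Lpin1 at 0.12. Ednrb was closest to Rspo3 and Serpina3n, both at 0.19. The Serpina3n signals were 5629 and 1135 in VEGFD arrays, against 2170 and 1664 in Apex arrays. All these genes were picked for likeness over 4 arrays, so sharing a member's pattern follows from the choice and is no separate evidence.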

How the data were processed

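Gene expression was measured on 4 Affymetrix mouse arrays, 2 of the VEGFD and 2 of the Apex group, grouped by their titles. Each probe set had 1 deposited intensity value an array, on a linear scale from 0.0265 to 15171. The sources used here do not give the algorithm behind them. Every array's mean was 150 once 2% of probe sets at either end were trimmed, so the deposited values appear scaled to that mean. Of 45101 probe sets 64 were controls, 34945 had 1 gene symbol, 932 had several and 9160 were unnamed here. Gene IDs of 34741 probe sets with 1 symbol matched the RefSeq GRCm38.p6 gene table. No detection calls were used, and the number of arrays limits the precision.

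Values were used as log2(signal + 16), 1 probe set a gene, and tested two-sided by moderated linear models (limma 3.58.1 under R 4.3.3, eBayes with a trend on intensity). The fit was run on simulated data with equal noise in both groups, which checks the code and not its accuracy on these arrays. Figures were drawn with matplotlib 3.10.9. The 10 genes and all lists were chosen with earlier results of these data known. All 10 genes were named, then pathway genes 2-fold apart without overlap, or else the 2 largest changes of a list, the 2 nearest genes to members spanning 2 or more, and the first 2 markers of each cell type list, of which Plin1 was unnamed here and another is not reported here. Other pathway genes and markers in the text were named after their values were seen. Alternatives covered the pseudocount, filter, scaling between arrays, choice of probe set, trend, replicate number and each array left out.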

Additional observations from a re-analysis of the deposited data

How the results depend on the processing

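Of 148 log2 changes of single tested genes under the alternatives, 141 kept their direction and side of the threshold, 5 changed sign and 2 newly passed. Part of the 141 was fixed in advance, because changing the filter, the trend or the replicate block cannot move a log2 change. Choosing the probe set by mean log2 value also left these changes as they were. No gene among them passed in the main fit, so sides could change only by newly passing. The sign changes all came from leaving out 1 array. Adm (range -1.19 to 0.056) and Ackr3 (-1.25 to 0.99) changed sign without VEGFD replicate 2, and Ednrb (-0.051 to 1.52) without VEGFD replicate 1. Ackr3 (0.11) did so without Apex replicate 1, and Nos3 (-0.84 to 0.087) without Apex replicate 2. Edn1 and Mme passed without VEGFD replicate 1, a fit in which many other genes over the whole series newly passed as well. With 1 array left out, the genes past the threshold numbered 0 to 385 and the members past it 0 to 1, the genes 2-fold apart without overlap 424 to 1352 and the members 2 to 4. The 4 without VEGFD replicate 1 were Ackr3, Adm, Edn1 and Ramp2. In those fits the lone array is assumed to vary like the others, and groups of fewer arrays overlap less readily. The median of the adrenomedullin and CGRP partners then ran from -0.84 to 0.10, that of endothelin processing from -0.33 to 0.053, that of the nitric oxide list from -0.17 to 0.12, that of the members from -0.87 to -0.28, and that of all tested genes from -0.050 to -0.022. With the replicate number as a replicate block 6 genes passed, all lower in VEGFD arrays, and 0 members did, with Ramp2 at an adjusted p of 0.358. The labels do not say that equal numbers pair, and the gaps between replicates 1 and 2 correlated between groups at r = 0.197 over 11677 genes. The count 2-fold apart was 231 with a pseudocount of 64 and 226 with the filter at the 75th percentile, where fewer genes are tested. That filter left out Mme and the members Ramp2, Ramp3, Ednrb and Nos3. So 1 member (Edn1) was counted, and the nitric oxide list had a median of 0.26. With no filter the adrenomedullin and CGRP partners had a median of -0.24. With each array centred on its median the median of all tested genes was 0.088, against -0.035 as deposited, and the 2-fold split 192 higher and 239 lower, against 127 and 326 as deposited. Members then had a median of -0.41, with Ramp2 at -1.59 and Edn1 at -1.40, and 7 of 8 remained lower.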
